A study of Mus musculus with 4 samples.

Results

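A pair of H3K4me3 regions tied to mitochondria was examined in the adult ovary: a peak beside Mrps24, a nuclear gene for a protein of the mitochondrial ribosome, and a peak at Gm28438, which lies in a stretch of chromosome 1 that is nearly identical to the mitochondrial genome. Members were all peaks of the deposited list that fell in a 30-kb window around Mrps24 or a 25-kb window around Gm28438, whatever their change. Each window held 1 peak, so that 2 of 151 listed peaks were members, and the number remained 2 when both windows were widened by 100 kb on each side.

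The list came from H3K4me3 ChIP-seq in 2 chlordecone (CD) and 2 control samples of ovary from Swiss mice. CD is an organochlorine insecticide with estrogenic activity. Pregnant females received 100 µg/kg/day of CD in 150 µl of olive oil by gavage from embryonic day E6.5 to E15.5, control females received the same volume of oil, and the ovaries are those of their adult daughters. The methods name several adult ages and do not say which of them was used for ChIP-seq. Every sample held 2 ovaries taken from different animals, and all cell types of the ovary were assayed together. The list gives positions only for peaks that were selected on the authors' comparison of CD with control, and no level in any sample. Being listed is therefore how both peaks were chosen and not a result about them, no comparison of CD with control could be made here, and the ovary label could not be checked against marker genes.

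H3K4me3 is histone H3 that carries 3 methyl groups on its lysine 4, and it is found at the starts of active genes, mostly those rich in CpG dinucleotides. Mitochondrial DNA is not wound on histones but packed by its own proteins, so that a mark on a histone has its place in nuclear chromatin. Mitochondrial ribosomes translate the few respiratory chain subunits that the mitochondrial genome encodes, while all proteins of these ribosomes are encoded in the nucleus. Pieces of mitochondrial DNA have also been inserted into nuclear chromosomes in the course of evolution, and a short read from such an insertion can match both genomes.

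The Gm28438 peak was 89 bp wide, at chr1:24612704-24612792 of mm10. It overlapped the last 18 bases of Gm28438, an unprocessed pseudogene on the minus strand (24612775 to 24613119, 345 bp) that is the nuclear counterpart of mt-Nd3, the mitochondrial gene for a subunit of complex I. The neighbouring pseudogene Gm10222 (24612407 to 24612700), the counterpart of the complex I gene mt-Nd4l and on the same strand, started 4 bp from the peak. The stretch of the mitochondrial genome that corresponds to the peak ran from 9786 to 9873 and held 66 of the 68 bases of mt-Tr, the gene of the arginine tRNA, and 21 bases of mt-Nd3. The sequences of the peak and of its mitochondrial counterpart are shown to let the only difference between them be seen. Both are on the strand that reads as the mitochondrial reference, which is the minus strand of chromosome 1, and the capitals mark the longest run of A.
Chromosome 1 copy: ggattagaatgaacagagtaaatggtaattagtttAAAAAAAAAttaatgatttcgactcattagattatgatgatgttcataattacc
Mitochondrial genome: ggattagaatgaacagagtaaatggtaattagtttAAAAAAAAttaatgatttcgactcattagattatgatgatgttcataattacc
The run of A had 9 bases in the chromosome 1 copy and 8 in the mitochondrial genome. All other bases were the same, which gave an identity of 98.876% (88 of 89 aligned bases) over the peak and of 99.83% (588 of 589) with 250 bases added on both sides. The additional base aligned 9 bp from the centre of the peak.

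The whole copy extended from 24611535 to 24616188 on chromosome 1, 4654 bp on the minus strand, and corresponded to positions 6390 to 11042 of the mitochondrial genome, or 28.5% of its length. It matched in 4651 of 4654 aligned bases, an identity of 99.936%. The listed peak covered 1.91% of it. Of the 13 mitochondrial genes in this stretch, 11 were whole and 2 were in part, among them 5 tRNA genes and 8 protein-coding genes. The parts were 483 of the 1545 bases of mt-Co1, a subunit of cytochrome c oxidase, and 876 of the 1378 bases of mt-Nd4, a subunit of complex I. The whole protein-coding genes were mt-Co2 and mt-Co3 (cytochrome c oxidase), mt-Atp6 and mt-Atp8 (ATP synthase), mt-Nd3 and mt-Nd4l (complex I). Annotated in the copy were 7 pseudogenes, of which Gm28438 alone overlapped the peak. The others were Gm10222, Gm28439 (counterpart of mt-Nd4), Gm28437 (mt-Co3), Gm10925 (mt-Atp6), Gm28661 (mt-Co2) and Gm29216 (mt-Co1).

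The 3 differences were the additional A in the copy of mt-Tr and 2 substitutions, written as the mitochondrial base, its position from the first base of the mitochondrial reference, and the base of the copy. T9461C lay in the third base of mt-Nd3, within Gm28438 and 325 bp from the peak. A6393T lay in mt-Co1, 3393 bp from the peak and close to the end of the copy. The peak thus held 1 of the 3 positions at which the copy can be told from the mitochondrial genome. Neither genome of the Swiss mice was analysed here, and both references come from the strain C57BL/6J. The length of the run of A in mt-Tr is known to vary between laboratory mouse strains, and its part in the listed peak was not tested.

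Because reads were 50 bp long, all 50-mers were searched in both strands of the nuclear chromosomes and the mitochondrial genome. Of the 4605 50-mers of the copy, 4509 (97.9%) also occurred in the mitochondrial genome, and 96 (2.08%) were found nowhere else. The latter formed 3 stretches, 1 around each difference. The stretch at the additional A consisted of 42 50-mers that spanned 24612708 to 24612798. This span began 4 bases after the start of the peak and ended 6 bases after its end, and thus held 85 of the 89 bases of the peak, or 95.5%. The stretch at T9461C consisted of 50 unique 50-mers (24613068 to 24613166) and the one at A6393T of 4 (24616136 to 24616188), and neither touched a listed peak. Inside the Gm28438 peak, 36 of 40 50-mers had no second exact place, and the remaining 4 (10.0%) each matched the mitochondrial genome. This share depended on the length taken: it was 48.1% with 36-mers, 36% with 40-mers, the length of the seed used in the alignment of the reads, and 0% with 75-mers. When all 50-mers that touch the peak by at least 1 base were taken, 42 of 138 were unique and 96 occurred in the mitochondrial genome. The unique sequence was therefore a narrow island, and with 250 bases on both sides 498 of 540 50-mers (92.2%) had a mitochondrial match. Allowing 1 mismatch raised the number with another place in the peak from 4 to 7 of 40 (17.5%), and allowing 2 raised it to 8. How reads with several matches were placed is not given in the sources used here, and the part of such reads in the listed peak was not tested.

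**Figure D1:**
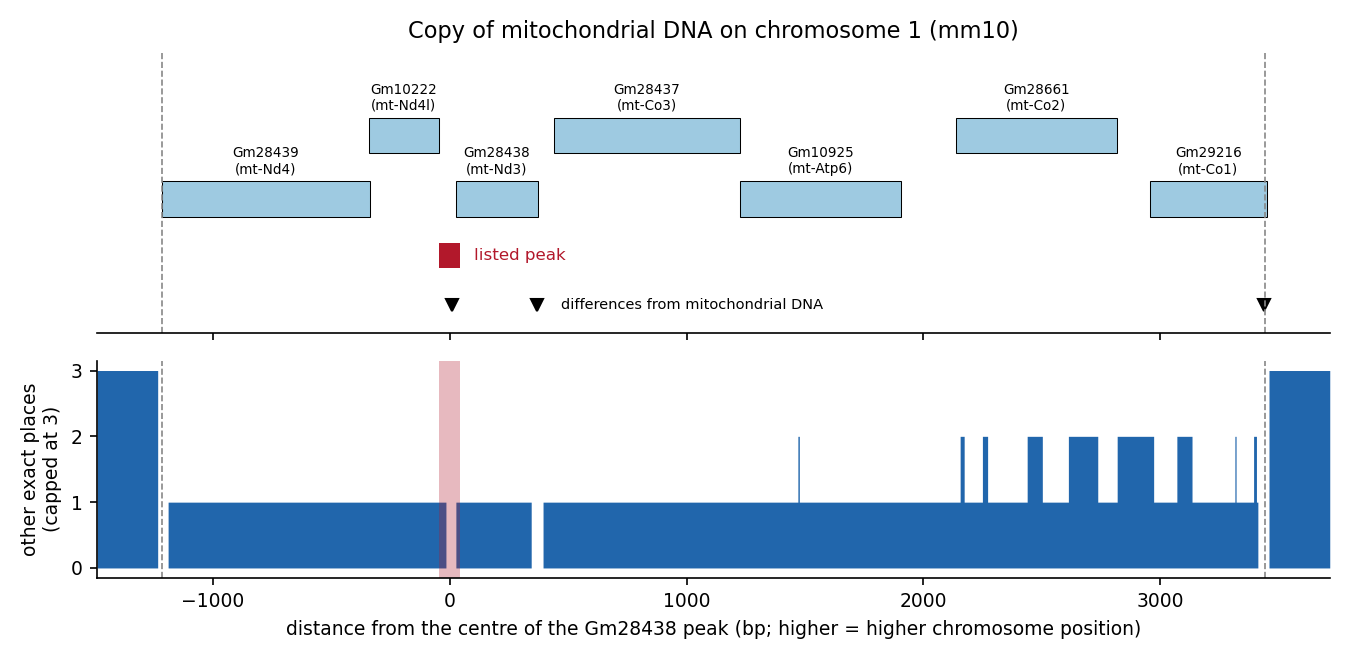
The copy of mitochondrial DNA on chromosome 1, with distance from the centre of the Gm28438 peak in bp on the x axis. The upper panel shows the 7 pseudogenes with their mitochondrial counterparts, the listed peak in red and the 3 differences as triangles. The lower panel gives the number of other exact places of each 50-mer, placed by its centre and capped at 3. Dashed lines mark the ends of the copy. Nearly every 50-mer of the copy had another place, and the gap at 0 under the peak is the stretch of 42 unique 50-mers.

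From the mitochondrial side, 5818 of the 16250 50-mers of the genome (35.8%) had an exact match in nuclear chromosomes, and 4509 of these (77.5%) lay in the stretch held by the chromosome 1 copy. Copies of mitochondrial DNA with at least 100 aligned bases and 80% identity numbered 47 in the nuclear genome. They were mostly short and diverged, with a median of 273 aligned bases and 86.2% identity, and 36 of them had fewer than 500 aligned bases. The chromosome 1 copy was the longest. Next came a copy at chr2:22587288-22590534 with 3260 aligned bases at 97.362% identity (mitochondrial positions 4441 to 7699) and one at chr4:80002330-80005200 with 2871 at 93.034% (12488 to 15356). An identity of at least 99% was found in 3 copies, and the other two had 365 and 129 aligned bases. A listed peak lay in 1 of the 47 copies, that of Gm28438. The list held 0 peaks on the mitochondrial genome itself. As it holds only peaks selected on the comparison of CD with control, it cannot show whether reads or other peaks lay there. Among the 151 listed peaks the Gm28438 peak was the only one with any 50-mer in the mitochondrial genome. The Gm28438 peak was chosen for lying in a nuclear copy, so it entered the counts of copies and of peaks by that choice.

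**Figure D2:**
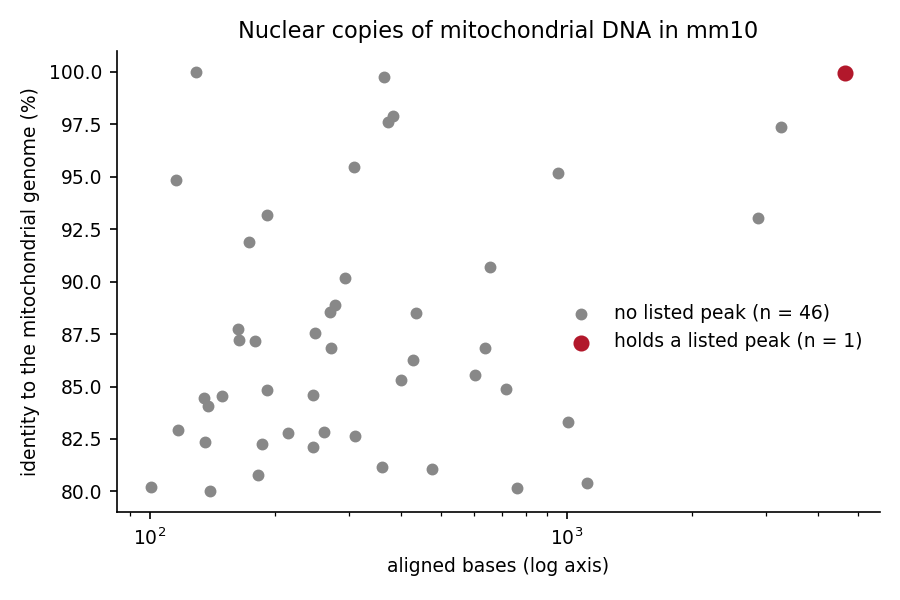
Nuclear copies of mitochondrial DNA in mm10, with aligned bases on a log x axis and identity to the mitochondrial genome in percent on the y axis. Each point is 1 of 47 copies, and the red point is the only one with a listed peak, which combines the greatest length (4654 bases) with an identity of 99.936%. It holds the Gm28438 peak, a member chosen for lying in such a copy.

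The Mrps24 peak was 461 bp wide, at chr11:5708105-5708565 of mm10. Mrps24 (5703983 to 5715680, minus strand) encodes a protein of the small subunit of the mitochondrial ribosome. The peak lay upstream of the start of the protein-coding transcript Mrps24-205, which has 4 exons and begins at 5707687, with its nearer edge 418 bp from that start. The gene also has 3 transcripts with a retained intron, which began 415 bp (Mrps24-203), 438 bp (Mrps24-201) and 463 bp (Mrps24-202) from the peak. The remaining transcript, the non-coding Mrps24-204, began 7115 bp from the peak on the far side, and an intron of it (5707556 to 5712497, 4942 bp) contained the whole peak. The peak overlapped 0 exons. By the annotation it was therefore outside the protein-coding transcript and intronic to Mrps24-204. In RefSeq the gene started at 5707701, 404 bp from the peak.

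GC content was 51.4% in the Mrps24 peak, with 17 CpG, against 61.7% and 24 CpG in the RefSeq promoter of the gene (250 bases before to 50 after the start, 300 in all), with 153 bases between the promoter and the peak. The peak thus stood beside the GC-rich start and not on it. Repeats made up 37.1% of the peak (171 bases), and 57.3% of the 417 bases between it and the protein-coding start, where the longest run of A had 30 bases. The central 300 bases of the peak (chr11:5708186-5708485) and the promoter (chr11:5707652-5707951) are shown for this contrast, both as the minus strand on which the gene is read, with the motifs searched in capitals on either strand. The promoter sequence is that of RefSeq on GRCm38 and was matched by symbol for Mrps24, 1 of the 2 members.
Mrps24 peak, central part: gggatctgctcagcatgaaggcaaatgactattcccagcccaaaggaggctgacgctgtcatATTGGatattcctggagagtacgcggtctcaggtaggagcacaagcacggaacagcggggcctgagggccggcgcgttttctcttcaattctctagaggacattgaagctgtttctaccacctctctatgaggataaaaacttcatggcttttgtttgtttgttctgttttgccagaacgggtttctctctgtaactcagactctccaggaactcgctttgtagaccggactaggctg
Mrps24 promoter, RefSeq: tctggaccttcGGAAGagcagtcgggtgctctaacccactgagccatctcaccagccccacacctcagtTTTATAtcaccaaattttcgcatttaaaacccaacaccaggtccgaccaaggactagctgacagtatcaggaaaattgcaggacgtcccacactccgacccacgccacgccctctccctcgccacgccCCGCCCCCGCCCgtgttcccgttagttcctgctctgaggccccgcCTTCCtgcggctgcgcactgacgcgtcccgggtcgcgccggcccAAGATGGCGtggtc
The printed part of the peak had 11 CpG. Motifs were searched by exact letters on both strands of the whole peak and of the promoter. The letters AAGATGGCG, bound by YY1, occurred 1 time in the promoter and 0 times in the peak, and were held by 1.4% of 32851 RefSeq promoters and by 2.55% of 54327 windows of the width of the peak at protein-coding starts. GGGCGG, the GC box of SP1, occurred 2 times in the promoter and 0 times in the peak (35.7% of promoters, 50.2% of windows). GGAAG, the core of ETS factors, occurred 2 times in the promoter and 0 times in the peak (71.4% of promoters, 84.7% of windows). The longer ETS letters CCGGAAG, which contain GGAAG, and GCGCNTGCG of NRF1 occurred 0 times in both (8.86% and 6.31% of promoters, 13.2% and 9.09% of windows). TATAAA occurred 1 time in the promoter and 0 times in the peak (13.6% of promoters, 14.1% of windows). CCAAT, the box of NFY, was the only motif of the 7 in the peak, with 1 match there and 0 in the promoter (37.4% of promoters, 43.9% of windows). These matches describe letters and not bound sites. The windows lay on starts and the peak did not, so their shares give no expected number for the peak.

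**Figure D3:**
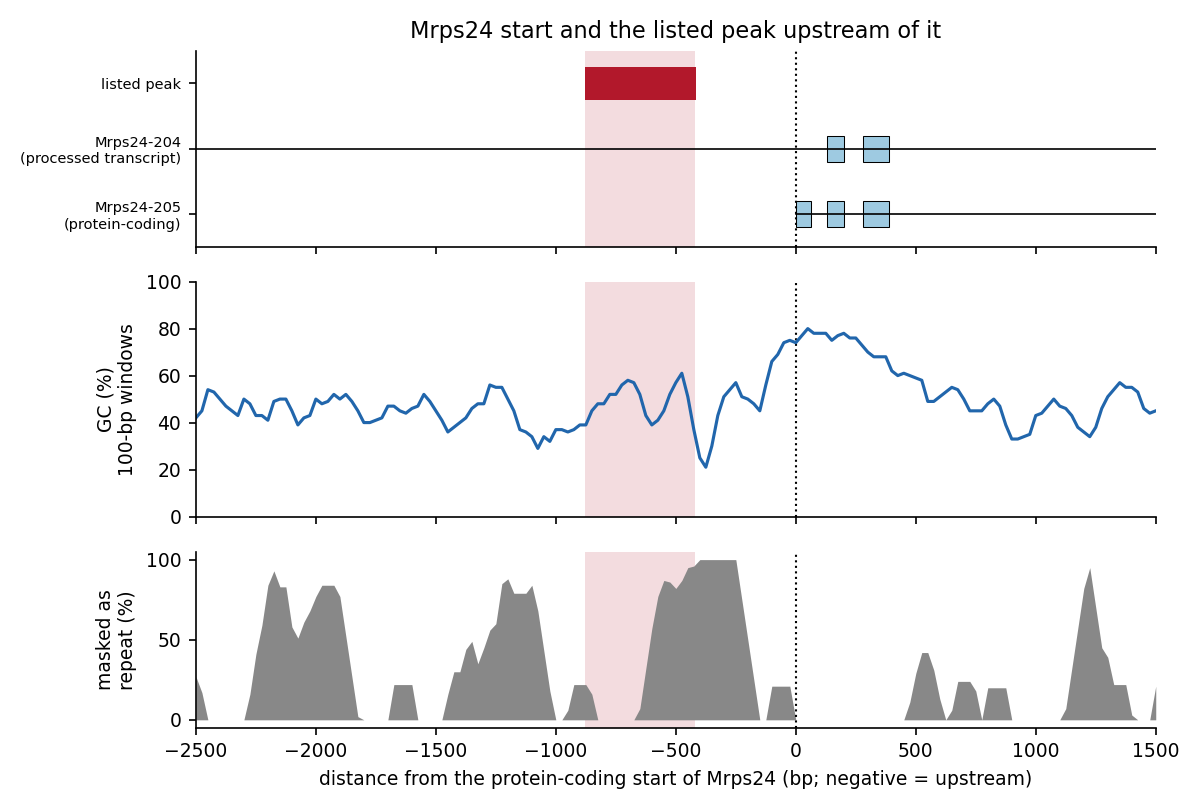
The start of Mrps24, with distance from the protein-coding start in bp on the x axis, negative values upstream. The upper panel shows the listed peak in red and the exons of Mrps24-205 and Mrps24-204. The lower panels give GC content and the share masked as repeat in percent, both in 100-bp windows. The peak lies between 418 and 878 bp upstream, separated from the GC-rich start by a stretch masked as repeat.

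Unlike Gm28438, the Mrps24 peak consisted of unique sequence. None of its 412 50-mers occurred elsewhere (0%), and the number was also 0 with up to 2 mismatches. Repeated 50-mers began just outside. In the 250 bases on the side of the protein-coding start, 167 of 250 50-mers had another exact place, with up to 3148 places for 1 of them, against 0 of 250 on the far side. Over the peak with both sides, 167 of 912 50-mers (18.3%) were found elsewhere, none of them in the mitochondrial genome. The members thus differed in layout: within 250 bases of the Mrps24 peak, 50-mers with another exact place lay on 1 side, while the Gm28438 peak was a short unique island with mitochondrial sequence on both sides.

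**Figure D4:**
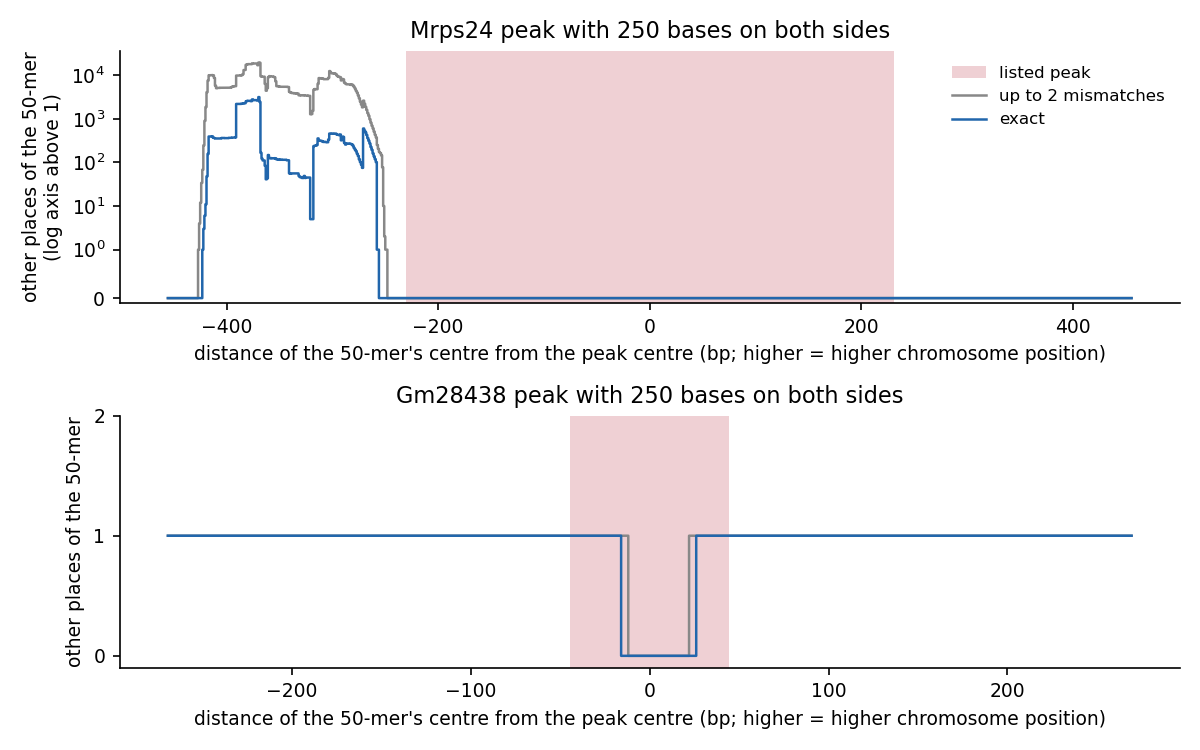
Number of other places of each 50-mer in and around both peaks, with the distance of its centre from the peak centre in bp on the x axis. Blue lines are exact matches, grey lines allow up to 2 mismatches, and red areas mark the peaks, on a log y axis above 1 for Mrps24 and a linear one for Gm28438. At Mrps24 all 50-mers in the peak are at 0, while at Gm28438 the count is 0 in the middle of the peak and 1 on both sides.

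Both peaks were also ranked among the 151 listed peaks, as a description. The Mrps24 peak was wider than 117 of the others and the Gm28438 peak wider than 32, at a median of 133 bp and a range of 72 to 2470 bp. GC content was 24.7% in the Gm28438 peak, with 1 peak below it and all others above (median 52.1%, range 22.7 to 81.2%). With 65 peaks below it, the Mrps24 peak was near the middle. The low GC content of the Gm28438 peak was below that of the chromosome 1 copy as a whole (36.4%) and of the mitochondrial genome (36.7%). Against windows of the same width centred on 54327 protein-coding starts, 0.153% were below the GC content of the Gm28438 peak (median 58.4%) and 31.5% below that of the Mrps24 peak (median 57.5%). The observed over expected ratio of CpG was 0.561 in the Mrps24 peak, where 50.1% of windows were lower. In the Gm28438 peak it was 0.848, a value that rested on 1 CpG in 89 bp and fell to 0.284 in 300 bases around the same centre (median 0.595 for windows of 89 bases). The nearest protein-coding start was 418 bp from the Mrps24 peak, closer than in 120 of the other peaks, and 25232 bp from the Gm28438 peak (median 8540 bp). A share of 50-mers found elsewhere above the 10.0% of Gm28438 was seen in 46 peaks, up to 50.6%, and 77 peaks, Mrps24 included, had none.

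**Figure D5:**
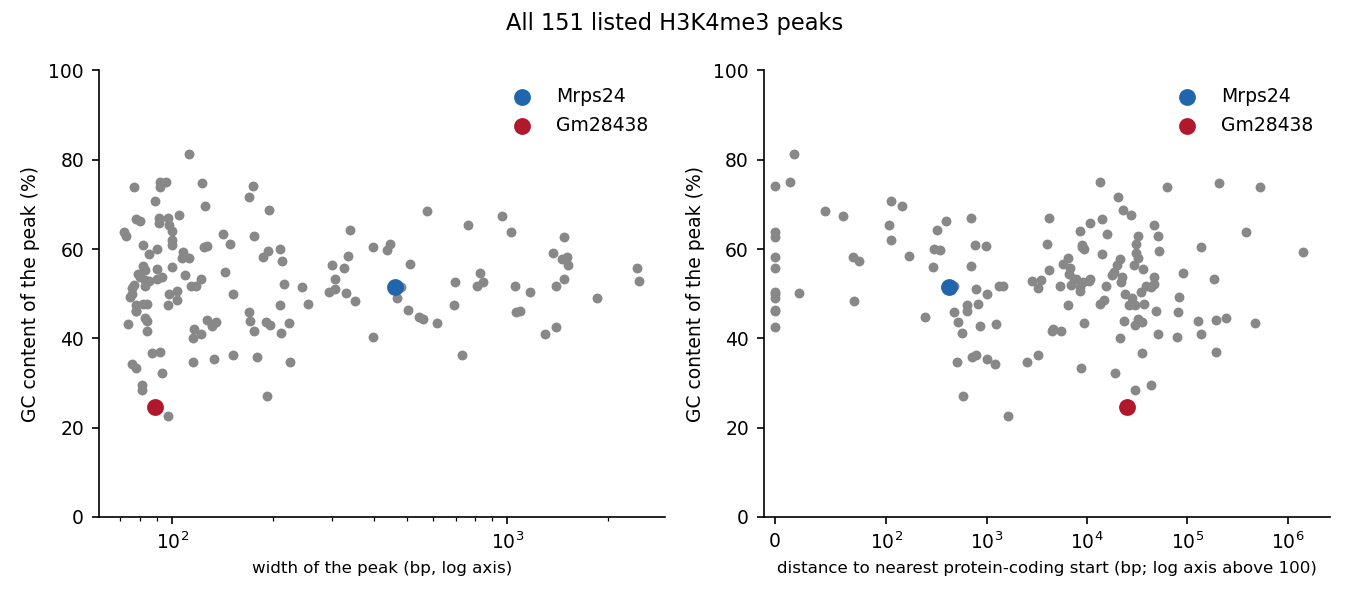
GC content in percent against width (left, log axis) and against distance to the nearest protein-coding start (right, log axis above 100 bp) for all 151 listed peaks. Each point is 1 peak. Mrps24 (blue) lies in the middle of the GC range at 51.4%, and Gm28438 (red) is second from the bottom at 24.7%.

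No listed peak preceded either member on its chromosome. The next was at 6006786 to 6006907 on chromosome 11, 298220 bp from the Mrps24 peak, and at 159232520 to 159232631 on chromosome 1, 134619727 bp from the Gm28438 peak. No other listed peak thus lay in either window when widened by 100 kb. The distances between the other listed peaks were not examined.

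Nuclear genes for other mitochondrial proteins were examined in the same list. Of 78 genes of mitochondrial ribosomal proteins, 1 had a listed peak within 1 kb of a start (1.28%), Mrps24 itself, compared with 44 of all 21829 protein-coding genes (0.202%). The number was also 1 at 10 kb. A second list held 94 genes for subunits and assembly factors of the respiratory chain and ATP synthase. Of these, 0 had a listed peak within 1 kb and 0 within 10 kb, where all genes had 73 (0.334%). Within 100 kb there were 2 genes of the ribosomal list (2.56%) and 2 of the respiratory list (2.13%), against 361 of all genes (1.65%). These were Mrps24, Mrps27 (small subunit of the mitochondrial ribosome), with a peak 10708 bp from its start at 99355496 to 99355586 on chromosome 13, and the complex I subunits Ndufa6 (10420 bp, 82364742 to 82364826 on chromosome 15) and Ndufv2 (73074 bp, 66019059 to 66019139 on chromosome 17). Mrps24 had the nearest listed peak of all genes in these lists, and it entered the count because the member was chosen for it.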

How the data were processed

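Per the methods, the authors sequenced 50 bp from 1 end of each fragment, aligned the reads to mm10, identified peaks over input with 2 replicates per group and compared CD with control. The submitters' processing notes name Bowtie 1.0.0, MACS2 2.1.1, bcl2fastq 2.17.1.14 and limma. The deposited table holds 151 peaks with start and end positions and 1 signed fold change of CD over control, which is the authors' own comparison and was not used. It holds no value per sample, so the depth behind each peak is unknown, no precision can be given and no test was made.

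Positions, given from 1, were set against GRCm38 (66 sequences) and GENCODE M21. Exact and near 50-mer matches were counted on both strands, and copies of mitochondrial DNA were aligned with BLAST+ 2.17.0 and Biopython 1.88, joining hits at most 1 kb apart. Python 3.11.15, NumPy 2.4.6, pandas 2.3.3, Numba 0.67.0 and Matplotlib 3.10.9 were used. The k-mer counts were tested on simulated sequence with 30 planted copies and were equal to those of a letter-by-letter comparison for 351 of 351 k-mers, while the search for copies by alignment was not tested in this way. Named were the members, genes within 10 kb, mitochondrial genes in the copy, the nearest listed peaks, list genes with a peak within 100 kb and the 3 longest copies. Members and lists were chosen with earlier results of these data known.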

Additional observations from a re-analysis of the deposited data

How the results depend on the processing

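No paired analysis was possible because the list holds no value per sample. Of 40 alternatives to 14 results, 20 stayed within the set margins. The share of Gm28438 50-mers found elsewhere, and equally the share found in the mitochondrial genome (10.0% each), was 48.1% with 36-mers, 36% with 40-mers and 0% with 75-mers. It was 87.3% with the reach of a sequenced fragment added on both sides and 92.2% with 250 bases. For Mrps24 these windows gave 13.6% and 18.3% in place of 0%. Identity was 98.876% over the peak alone against 99.936% over the copy. The distance from the protein-coding start was 648 bp to the centre of the Mrps24 peak. Copies of mitochondrial DNA numbered 14 at 90% identity, 11 from 500 and 5 from 1000 aligned bases. Within 100 kb, 2 mitochondrial ribosomal genes and 2 respiratory chain genes had a listed peak. The CpG ratio of Gm28438 was 0.284 in 300 bases. Leaving out a replicate was not possible. The list gives no depth, so nothing can be said of the precision of either peak.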
